A study of Homo sapiens with 9 samples.

Results

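This report describes 10 genes of the AP-1 transcription factor network in nascent RNA of PANC-1 cells. They are the FOS family genes FOS, FOSB, FOSL1 and FOSL2, the JUN family genes JUN, JUNB and JUND, and the partner genes ATF3, MAFF and BATF3. They were taken by symbol from the deposited gene tables, where all 10 were found once among 57733 genes in each of 9 libraries.

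PANC-1 is an established line of human pancreatic ductal carcinoma cells. The control line, called WT, received no guide RNA, and KO C22 and KO C28 are single CRISPR/Cas9 clones with KDM6A, also called UTX, as the target. KDM6A encodes an enzyme that removes methyl groups from lysine 27 of histone H3. Nascent RNA was labelled with 2 mM bromouridine for 30 min and collected with a chase of 0 h. Bru-seq, which captures RNA made during the labelling, was run on 2 libraries of each line. BruUV-seq, in which cells also received 100 J/m2 of ultraviolet light, was run on 1 library of each line. Ultraviolet lesions stop RNA polymerase, so reads gather near the starts of genes and at enhancers. Because each knockout is 1 clone, clone and genotype cannot be told apart. The labels do not say that replicates are separate cultures, so each p-value speaks of the spread among these libraries alone, which may be technical.

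AP-1 is a dimer of basic leucine zipper proteins that binds the DNA word TGANTCA. FOS proteins bind it only as partners of JUN proteins, whereas JUN proteins can also pair among themselves. FOS, FOSB, JUN, JUNB and ATF3 are immediate early genes, switched on within minutes by growth factors through MAP kinases or by stress. FOSL1, FOSL2 and JUND are typically made for longer, and FOSL1 is known as a target of RAS and ERK signalling in carcinoma cells. ATF3, MAFF and BATF3 are small members of the wider zipper family that often act as repressors or as partners that alter the dimer's DNA choice.

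Promoter sequences are shown for 5 members. FOS and FOSB are shown because they lay furthest below WT in both clones over both assays, MAFF because its window shares a word with theirs, and JUN and ATF3 because they carry a like word. The words TGACGT and TGACNTCA are of kinds that cyclic AMP response factors and AP-1 relatives are known to read. RefSeq windows (GRCh38.p14) from 250 bases before to 50 after a start were found for 8 of the 10 members, 10 windows in all. FOSL1 and BATF3 were not among them. The printed stretch runs 5′ to 3′ on the gene's strand from 150 bases before the start to 30 after. Capitals mark 4 words on either strand, namely TGANTCA (the AP-1 word) and TGACNTCA (a form of the cyclic AMP response element), together with TGACGT (its shorter core) and with TCATTCATAA (the longest word that the FOS and FOSB windows share).
FOS, chr14:75278678-75278857, plus strand: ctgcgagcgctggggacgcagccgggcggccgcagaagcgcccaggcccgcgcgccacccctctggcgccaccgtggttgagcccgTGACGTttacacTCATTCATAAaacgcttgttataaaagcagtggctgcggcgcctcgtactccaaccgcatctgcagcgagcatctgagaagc
FOSB, chr19:45467846-45468025, plus strand: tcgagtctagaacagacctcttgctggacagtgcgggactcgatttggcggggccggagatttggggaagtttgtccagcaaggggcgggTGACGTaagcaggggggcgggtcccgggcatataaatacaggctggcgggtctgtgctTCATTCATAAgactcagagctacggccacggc
MAFF, first start, chr22:38201844-38202023, plus strand: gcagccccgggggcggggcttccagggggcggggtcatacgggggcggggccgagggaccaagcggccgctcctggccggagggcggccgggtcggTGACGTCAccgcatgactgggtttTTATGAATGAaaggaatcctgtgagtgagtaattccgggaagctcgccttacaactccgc
JUN, chr1:58784018-58784197, minus strand: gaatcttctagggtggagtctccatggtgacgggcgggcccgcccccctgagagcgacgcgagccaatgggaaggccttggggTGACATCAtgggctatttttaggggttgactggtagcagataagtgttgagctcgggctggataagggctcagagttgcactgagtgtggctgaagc
ATF3, first start, chr1:212565257-212565436, plus strand: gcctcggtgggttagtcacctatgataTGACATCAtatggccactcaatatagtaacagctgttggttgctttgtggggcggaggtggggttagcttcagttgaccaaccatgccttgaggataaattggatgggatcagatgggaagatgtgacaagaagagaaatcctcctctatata

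TGACGT or TGACNTCA, which can overlap each other, lay in 7 of the 10 windows, against 13.6% of 35116 RefSeq promoter windows of 300 bases. In FOS the word TGACGT spanned -64 to -59 from the start, and in FOSB -60 to -55. MAFF carried the full palindrome TGACGTCA from -54 to -47, and JUN and ATF3 carried TGACATCA from -67 to -60 and from -123 to -116. FOSL2 and JUND, whose windows are not printed, carried such words too. FOSL2 had TGACGT from -66 to -61, and JUND had TGACGTCA from -200 to -193 and TGACGT from -87 to -82. The words were thus not particular to the members furthest below WT. The word TCATTCATAA, of 10 bases, was chosen after the sequences were seen. It lay in the FOS, FOSB and MAFF windows, and in 18 of the 35116 windows, or 0.0513%. It spanned -52 to -43 in FOS, -2 to 8 in FOSB, across the start, and -30 to -21 in MAFF on the other strand. No factor that reads it was looked for. TATAAA lay in 4 of the 10 windows, those of FOS, FOSB, JUNB and the second start of ATF3, against 11.5% of all. TGANTCA, the AP-1 word itself, lay in the FOSL2 window alone, against 7.71% of all. The CArG box, the word read by serum response factor, lay in none of the 10 windows and in 1.29% of all. Sites more than 250 bases before the start lie outside the windows and were not searched, so an absence there cannot be read. These matches describe letters in a window and are not shown here to be bound.

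Libraries held 5.64 to 31.1 M reads in genes. KO C28 replicate 2 of Bru-seq stood apart, with the fewest reads and 46.5% of its reads outside genes, against 9.93% to 20% elsewhere. WT replicate 2 of Bru-seq stood apart in the members themselves, as given below, so results are also given without these libraries. KDM6A was transcribed in all 9 libraries at 77.7 to 440 CPM (read counts scaled to library size with TMM factors). It did not pass the test in either clone (KO C22 log2 fold change 0.24, SE 0.85, edgeR adjusted p = 1; KO C28 log2 fold change -0.61, SE 0.86, adjusted p = 0.875). A small lesion cannot be seen in counts summed over a gene body. Of 8 markers of epithelial or ductal carcinoma cells, 4 (KRT18, KRT19, S100A6 and VIM, which is also a mesenchymal gene) lay above 1 RPKM (reads scaled to gene length and library size) in all libraries, while KRT7 reached at most 0.708. Their summed RPKM ran from 81.7 in KO C22 replicate 2 to 968 in KO C28 replicate 2. The 6 leukocyte markers summed to 0.596 to 3.32 RPKM, the 3 endothelial markers to at most 0.222, the 4 fibroblast markers to at most 1.71, and the 5 acinar and islet markers to at most 0.226, with INS at 0 throughout.

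Per gene length, JUN and FOSL1 were the most transcribed of the 10 genes. By the deposited RPKM, JUN was highest in 7 of 9 libraries and FOSL1 in the other two, WT replicate 1 and KO C22 replicate 2 of Bru-seq. JUN ranked 1 or 2 and FOSL1 between 1 and 3 in every library. JUNB and JUND followed with median ranks of 4, FOSL2 with 5 and FOS with 6. MAFF, FOSB, ATF3 and BATF3 had median ranks of 7, 8, 9 and 10. FOSB had the widest range, from rank 2 in WT replicate 2 to rank 10.

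In Bru-seq the mean RPKM of JUN was 29.4 ± 17.8 (SD, n = 2) in WT, 14.7 ± 0.561 in KO C22 and 22.3 ± 8.13 in KO C28. The mean RPKM of FOSL1 was 20.9 ± 3.19, 15 ± 0.851 and 10.1 ± 6 in the same order. JUN and FOSL1 overlapped within their spread in WT and lay close together in KO C22. FOS held a mean RPKM of 10.8 ± 7.72 in WT, 0.173 ± 0.0836 in KO C22 and 0.545 ± 0.0727 in KO C28. In WT the ranges of FOS (5.36 and 16.3 RPKM), FOSL2 (1.49 and 12.5), JUNB (1.82 and 5.63) and JUND (3.11 and 6.44) overlapped, so no order among these neighbours can be read. BATF3 was near the bottom, at 0.486 ± 0.0932, 0.187 ± 0.0278 and 0.176 ± 0.0175 RPKM. ATF3 spans 55.4 kb in the tables because its annotation joins RefSeq starts far apart, so its RPKM depends on which start the cells use.

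**Figure D1:**
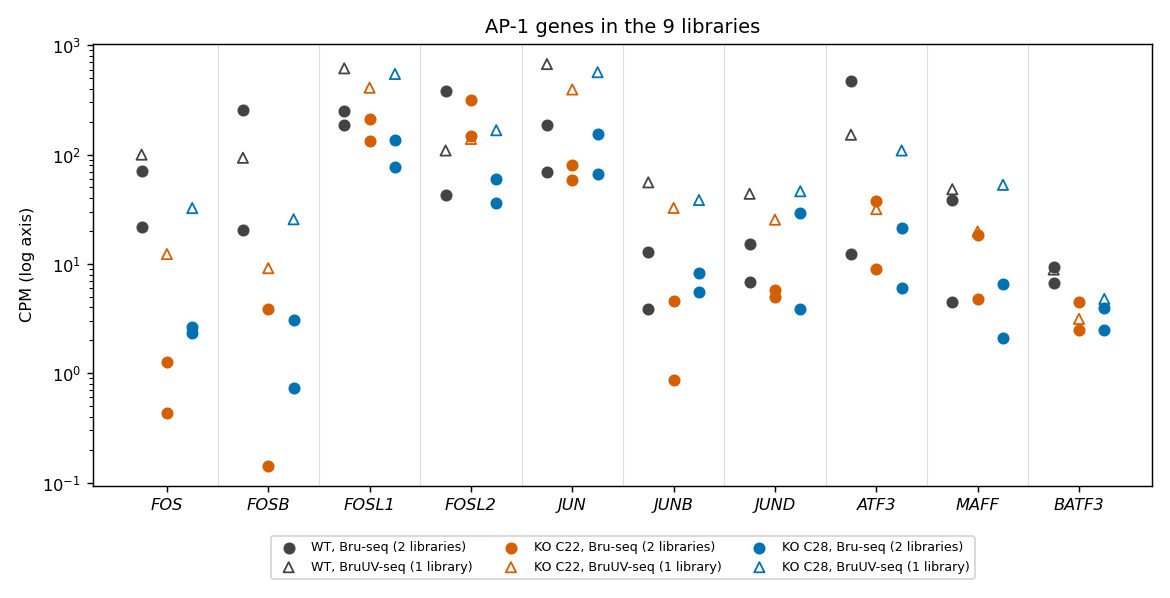
Library-scaled counts (CPM, log axis) of the 10 AP-1 genes in every library, with filled circles for the 2 Bru-seq libraries and open triangles for the 1 BruUV-seq library of each line. FOS and FOSB of both clones lie below both WT libraries in Bru-seq and below the WT library in BruUV-seq, while JUN and FOSL1 of the clones lie nearer to WT.

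FOS and FOSB were the members furthest below WT in both clones in the fit over both assays and in BruUV-seq. In Bru-seq they were so in KO C22, while in KO C28 the log2 fold change of ATF3 (-4.43) lay beside that of FOS (-4.38). FOS (ENSG00000170345.9, chr14:75278774-75282230, plus strand) encodes the founding partner of JUN. Its Bru-seq level was 21.8 and 70.8 CPM in WT replicates 1 and 2. The KO C22 replicates held 0.43 and 1.28 CPM, and the KO C28 replicates 2.33 and 2.63 CPM. In BruUV-seq it was 99.9 CPM in WT, 12.3 CPM in KO C22 and 32.4 CPM in KO C28. Every clone library lay below every WT library of the same assay, and KO C22 lay below KO C28 in each. The deposited reads behind these levels were 481 and 1682 in the WT replicates of Bru-seq, 9 and 28 in those of KO C22, and 38 and 18 in those of KO C28, so the clone levels rest on few reads.

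FOSB (ENSG00000125740.13, chr19:45467995-45475179, plus strand) is the close relative of FOS and is induced with it in many cells. The WT replicates of Bru-seq held 20.5 and 255 CPM of FOSB, those of KO C22 0.143 and 3.84 CPM, and those of KO C28 0.735 and 3.07 CPM. The BruUV-seq levels were 93.5, 9.14 and 25.6 CPM in WT, KO C22 and KO C28. The groups did not overlap in either assay, and WT replicate 2 was 12.4-fold above replicate 1. FOSB lies inside ERCC1 on the opposite strand. In KO C22 replicate 1 the table gave FOSB 3 reads and ERCC1 285, so few of the ERCC1 reads can have been counted to FOSB there. The labels give strand-specific reads for certain samples without saying here which, so the part of ERCC1 reads in the FOSB values of other libraries was not tested.

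In the edgeR quasi-likelihood fit of the 6 Bru-seq libraries, no member passed an adjusted p of 0.05 in either clone. The background was 0.00438% of 22827 genes in each clone, or 1 gene. FOS had a log2 fold change of -5.72 (SE 0.95, edgeR adjusted p = 0.383) in KO C22, and in KO C28 it had -4.38 (SE 0.89, adjusted p = 0.65). FOSB had -6.11 (SE 1.48, adjusted p = 0.992) and -6.50 (SE 1.53, adjusted p = 0.728). Without WT replicate 2 FOSB stood at -3.37 and -3.75, and without KO C22 replicate 2 at -9.73 in KO C22. Only 0.123% of genes, FOS included, had a fold change as low as that of FOS in KO C22. For FOSB the share there was 0.0701%, with FOSB itself included. The common biological coefficient of variation, the spread between libraries that the fit assumes, was 79.3%. DESeq2 called FOS and FOSB in both clones, with adjusted p = 3.16e-08 and 0.000175 in KO C22. In KO C28 these were 0.00026 and 0.000127, and it called ATF3 in KO C28 with 0.0235. It called 91 genes in all in KO C22 and 205 in KO C28. limma-voom called 0. At an unadjusted edgeR p under 0.05, FOS, FOSB and ATF3 lay lower in KO C22, against 0.767% of genes. FOS, FOSB, FOSL2, ATF3 and MAFF did so in KO C28, against 1.63%.

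The Bru-seq calls turned on single libraries. In each of these fits the line with a library left out has 1 library, which is taken to vary like the others, so the spread comes from the other lines alone. Without WT replicate 1 edgeR called FOS (adjusted p = 0.0208) and FOSB (0.00241) in KO C22, and FOSB (0.00123) and ATF3 (0.0305) in KO C28, where 3 and 6 genes in all were called. Without KO C22 replicate 1 it called FOSB in KO C22 (0.0451), and FOS (0.0075), FOSB (7.47e-07) and ATF3 (0.00563) in KO C28, where 22 and 148 genes were called. Without KO C22 replicate 2 it called FOS (0.0458) and FOSB (7.66e-05) in KO C22, and FOS (0.00877), FOSB (1.14e-06) and ATF3 (0.00628) in KO C28, where 7 and 179 genes were called.

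With all 9 libraries in 1 edgeR fit and the assay as a term, FOS fell in KO C22 and was the one member called in any comparison between lines. Its log2 fold change was -4.96 (SE 0.78, adjusted p = 0.0376), where 0.158% of 23443 genes were called and 0.0512% were called lower. In KO C28, where 0.0981% of genes were called, FOS had -3.48 (SE 0.73, adjusted p = 0.151). FOSB had -5.58 (SE 1.35, adjusted p = 0.255) and -4.84 (SE 1.37, adjusted p = 0.401) in KO C22 and KO C28, and -3.25 and -2.84 without WT replicate 2.

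The direction of FOS in KO C22 was the same with each of the 9 libraries left out, at -5.75 to -3.98, but its call was not. It was lost without Bru-seq WT replicate 1 (adjusted p = 0.0838), WT replicate 2 (0.079), KO C22 replicate 1 (0.0854) or KO C22 replicate 2 (0.0829). It was also lost without the BruUV-seq library of KO C22 (0.135) or KO C28 (0.0624), and with limma-voom (0.0913). With WT replicate 2 and KO C28 replicate 2 of Bru-seq both left out, FOS stood at -3.93 with an adjusted p = 0.0254. With the low-count filter grouped by line it stood at -4.97 with 0.0287.

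**Figure D2:**
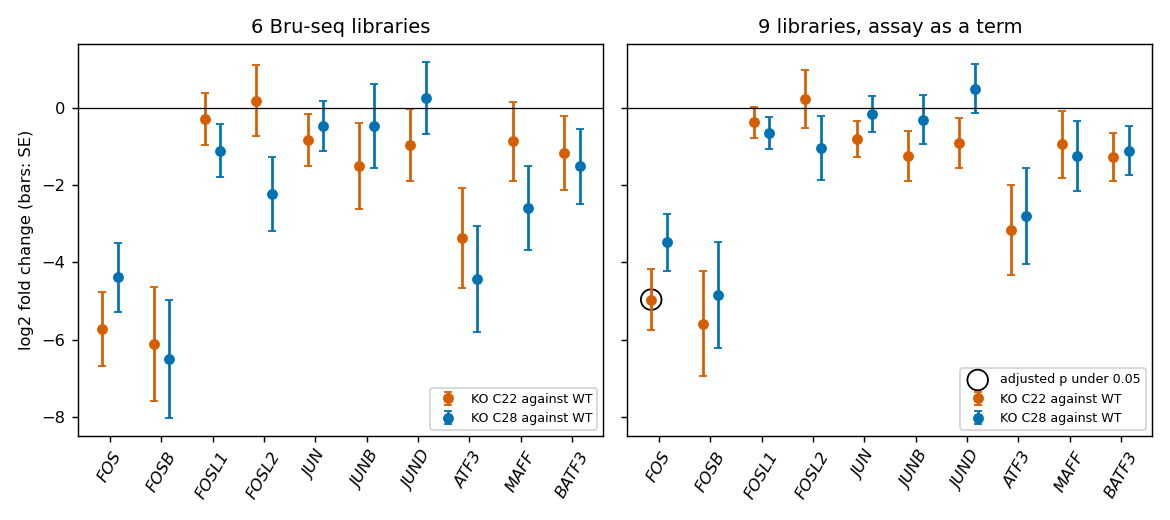
Log2 fold change of each AP-1 gene in KO C22 and KO C28 against WT with its standard error, in the fit of the 6 Bru-seq libraries (left) and of all 9 libraries with the assay as a term (right). FOS and FOSB lie lowest, except that ATF3 (-4.43) lies beside FOS (-4.38) in KO C28 of Bru-seq, and the circled point, FOS in KO C22 at -4.96, is the one with an adjusted p under 0.05.

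FOSL1 and FOSL2 had smaller fold changes than FOS, and the difference from FOS was not tested. FOSL1 (ENSG00000175592.8, chr11:65892049-65900526, minus strand) encodes FRA-1. In Bru-seq FOSL1 stood at 186 and 248 CPM in the WT replicates, at 133 and 211 CPM in those of KO C22, and at 137 and 76.3 CPM in those of KO C28. In BruUV-seq it was 615, 409 and 546 CPM in WT, KO C22 and KO C28. KO C22 overlapped WT in Bru-seq, and both KO C28 libraries lay below both WT libraries. The log2 fold change over both assays was -0.38 (SE 0.4, adjusted p = 0.995) in KO C22, where KO C28 had -0.66 (SE 0.41, adjusted p = 0.533).

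FOSL2 (ENSG00000075426.11, chr2:28392802-28417312, plus strand) encodes FRA-2. Bru-seq gave 42.4 and 383 CPM of FOSL2 in WT, where KO C22 had 149 and 319 CPM and KO C28 had 59.6 and 36.4 CPM. BruUV-seq gave 109, 139 and 167 CPM in WT, KO C22 and KO C28. KO C22 lay within the range of WT in Bru-seq, and in BruUV-seq both clones lay above WT. The Bru-seq log2 fold change was 0.18 (SE 0.92, adjusted p = 1) in KO C22, where KO C28 had -2.23 (SE 0.96, adjusted p = 0.728). Without WT replicate 2 these values were 2.49 in KO C22 and 0.06 in KO C28, without WT replicate 1 -0.69 and -3.12, and without KO C22 replicate 2 -0.39 in KO C22. Of the 10 members, FOSL2 was the one above WT in KO C22 in the fits of all libraries.

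FOS and FOSB made up less of the FOS family in every clone library than in WT. FOS and FOSB together held 27.9% and 55.4% of the summed FOS family RPKM in the WT replicates of Bru-seq. The share was 0.656% and 2.32% in those of KO C22 and 4% and 10.2% in those of KO C28. In BruUV-seq they held 35.2%, 8.21% and 15.3% in WT, KO C22 and KO C28. All WT shares lay above all clone shares in the same assay. FOSL1 held 66.8% and 28.9% in the WT replicates of Bru-seq, 71.4% and 63.8% in those of KO C22, and 83.3% and 77% in those of KO C28. FOSL1 was the largest part of the family in every library except WT replicate 2 of Bru-seq, in which FOSB led. Per length, FOSL1 exceeded FOS by 3.48- and 1.43-fold in the WT replicates of Bru-seq, by 126- and 67.1-fold in those of KO C22 and by 24- and 11.8-fold in those of KO C28. FOSL2 held its largest shares in KO C22 of Bru-seq, at 28% and 33.8%. These shares were formed from RPKM and were not tested.

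**Figure D3:**
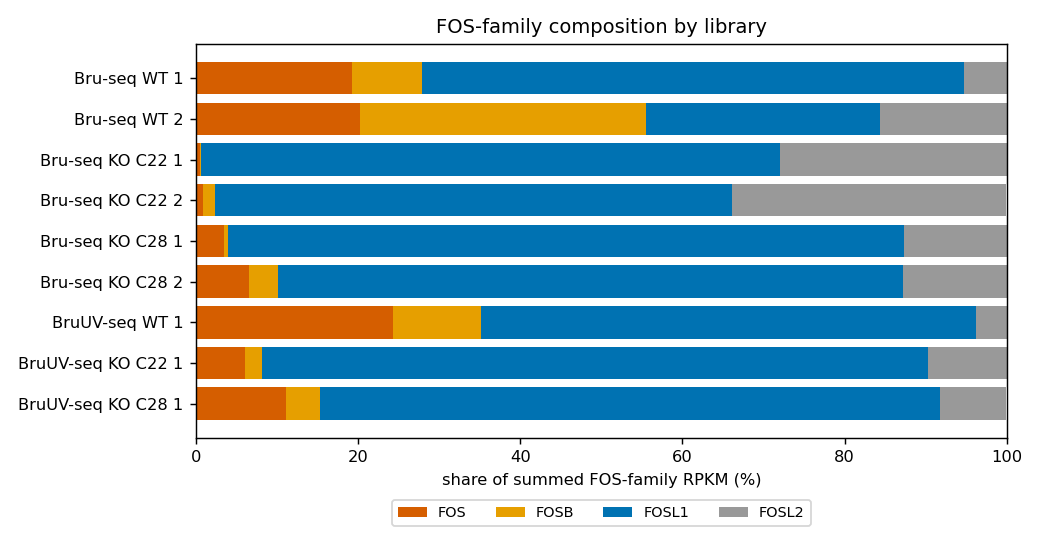
Share of the summed FOS family RPKM held by FOS, FOSB, FOSL1 and FOSL2 in each of the 9 libraries, as stacked bars from 0 to 100%. The FOS and FOSB parts reach 27.9% to 55.4% in the WT libraries and 0.656% to 15.3% in the clones, where FOSL1 takes 63.8% or more.

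The JUN family genes stayed much closer to WT than FOS and FOSB did. In KO C22 over both assays, FOSL1 (-0.38) and FOSL2 (0.21) lay nearer to WT than any JUN family gene. In KO C28 they lay further from it, at -0.66 and -1.04. JUN (ENSG00000177606.6, chr1:58780788-58784327, minus strand) encodes c-Jun, the usual partner of the FOS proteins. The WT replicates of Bru-seq held 69.9 and 187 CPM of JUN, those of KO C22 58.2 and 80.6 CPM, and those of KO C28 66.2 and 153 CPM. The BruUV-seq libraries of WT, KO C22 and KO C28 held 673, 394 and 567 CPM. The lines overlapped in Bru-seq, and the WT replicates were 2.67-fold apart. Over both assays the log2 fold change was -0.82 (SE 0.46, adjusted p = 0.995) in KO C22, where KO C28 had -0.17 (SE 0.46, adjusted p = 0.894).

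JUNB (ENSG00000171223.5, chr19:12791496-12793315, plus strand) encodes a weaker activator than c-Jun. Bru-seq gave 3.89 and 12.9 CPM of JUNB in WT, where KO C22 had 4.59 and 0.868 CPM and KO C28 had 5.58 and 8.18 CPM. Both clones overlapped WT, and both KO C28 libraries lay above both of KO C22. JUND (ENSG00000130522.5, chr19:18279760-18281622, minus strand) encodes the member known for steady production in resting cells. In Bru-seq JUND stood at 6.83 and 15.1 CPM in the WT replicates, at 5.73 and 4.98 CPM in those of KO C22, and at 3.86 and 29.1 CPM in those of KO C28. Both KO C22 libraries lay below both WT libraries for JUND, while KO C28 held both the lowest and the highest of the 6 values. The high value came from KO C28 replicate 2, the library with 46.5% of reads outside genes. The Bru-seq log2 fold change of JUND in KO C28 was 0.25 with that library and -1.5 without it. The part of the reads outside genes in the high value was not tested. Neither gene passed in either clone, with log2 fold changes over both assays of -1.26 (SE 0.65, adjusted p = 0.995) and -0.31 (SE 0.64, adjusted p = 0.86) for JUNB in KO C22 and KO C28. For JUND they were -0.91 (SE 0.64, adjusted p = 0.995) and 0.49 (SE 0.64, adjusted p = 0.765). With each library left out in turn, the JUND value in KO C28 ran from -0.62 to 0.94.

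The split within the JUN family was even across the BruUV-seq libraries. JUN held 77.8%, 77.9% and 77.7% of the summed JUN family RPKM in WT, KO C22 and KO C28 there. In Bru-seq it held 77.3% and 77.6% in the WT replicates, 74.6% and 87.9% in those of KO C22, and 78.5% and 68.3% in those of KO C28. The summed JUN family RPKM was 0.778 and 0.673 times that of the FOS family in WT of Bru-seq, and 2.05 times in WT of BruUV-seq. In KO C22 this ratio was 1 and 0.666 in Bru-seq and 2.43 in BruUV-seq. In KO C28 it was 1.23 and 5.42 in Bru-seq and 2.45 in BruUV-seq, so the summed ratio moved more between assays than between lines outside KO C28 replicate 2.

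Of the partner genes, ATF3 and MAFF lay far apart between replicates, and BATF3 did not. ATF3 (ENSG00000162772.16, chr1:212565334-212620777, plus strand) encodes a stress-induced factor. The WT replicates of Bru-seq held 12.3 and 473 CPM of ATF3, those of KO C22 8.93 and 37.3 CPM, and those of KO C28 6.07 and 21.2 CPM. The BruUV-seq levels were 152, 31.7 and 109 CPM in WT, KO C22 and KO C28. WT replicate 1 lay inside the range of both clones, and WT replicate 2 lay far above all others. The Bru-seq log2 fold change of ATF3 was -3.37 (SE 1.29, adjusted p = 1) in KO C22, where KO C28 had -4.43 (SE 1.36, adjusted p = 0.728). It rested on that library: without WT replicate 2 it was 0.92 in KO C22, and in KO C28 it was -0.16.

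MAFF (ENSG00000185022.11, chr22:38201882-38216511, plus strand) encodes a small MAF protein without an activation domain. Bru-seq gave 4.52 and 38.6 CPM of MAFF in WT, where KO C22 had 4.82 and 18.4 CPM and KO C28 had 2.08 and 6.58 CPM. BruUV-seq gave 48.2, 19.8 and 52.9 CPM in WT, KO C22 and KO C28. The lines overlapped in Bru-seq. BATF3 (ENSG00000123685.8, chr1:212686418-212699985, minus strand) encodes a partner of JUN best known in dendritic cells. In Bru-seq BATF3 stood at 6.7 and 9.43 CPM in the WT replicates, at 2.48 and 4.48 CPM in those of KO C22, and at 2.51 and 3.95 CPM in those of KO C28. Its BruUV-seq levels were 8.88, 3.14 and 4.78 CPM in WT, KO C22 and KO C28. Both clones lay below WT in every library. Over both assays the log2 fold change of BATF3 was -1.27 (SE 0.62, adjusted p = 0.967) in KO C22, where KO C28 had -1.11 (SE 0.62, adjusted p = 0.5). That of MAFF was -0.95 (SE 0.86, adjusted p = 0.995) and -1.25 (SE 0.91, adjusted p = 0.59). Without Bru-seq WT replicate 2 MAFF stood at 0.64 and -0.14, without KO C22 replicate 2 at -1.96 in KO C22, and without the BruUV-seq library of KO C28 at -2.31 in KO C28.

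FOS, FOSB, JUND and BATF3 had both KO C22 libraries below both WT libraries of Bru-seq, 4 of 10 members, where 17.1% of 22827 genes did so. In KO C28 these were FOS, FOSB, FOSL1 and BATF3, where 18.2% of genes did so. FOS, FOSB and BATF3 lay below WT without overlap in both clones and both assays, 3 of 10 members against 5.2% of 23443 genes. In each clone 9 of the 10 members had a fold change below 0 over both assays, with a median of -1.10 in KO C22 and -1.08 in KO C28. The medians of all genes tested were 0.03 and 0.08, and 48.4% and 47% of all genes lay below 0. Without WT replicate 2 of Bru-seq 8 members lay below 0 in KO C22 and 6 in KO C28, with medians of -0.43 and -0.28. FOS, FOSB and BATF3 were again below WT there, BATF3 at -1.08 and -1.07. At an unadjusted p under 0.05, FOS, FOSB and ATF3 lay lower in each clone over both assays, against 2.76% of genes in KO C22 and 2.64% in KO C28. The comparisons of both clones share the WT libraries, so their fold changes are not independent.

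Several members lay far apart between the WT replicates of Bru-seq, although over all genes WT replicates lay closest. The median size of the log2 gap over all genes was 0.53 in WT, 0.59 in KO C22 and 0.96 in KO C28. Over 11811 genes averaging 100 counts or more, the log2 ratio of WT replicate 2 to replicate 1 in Bru-seq had a median of 0.05 and ran from -1.46 to 1.74 between the 5th and 95th percentiles. All 10 members lay above that median. ATF3 stood at 5.25, a gap exceeded in size by 0.0339% of genes, and FOSB at 3.63, exceeded by 0.313%. FOSL2 stood at 3.17 and MAFF at 3.06, exceeded by 0.762% and 0.974% of genes. FOS and JUNB stood at 1.70 each, JUN at 1.42 and JUND at 1.13. FOSL1 and BATF3, at 0.41 and 0.49, had gaps exceeded by 59.4% and 53.3% of genes. In KO C22 the members furthest from the median of 0.41 were FOSB at 3.98, JUNB at -2.27, ATF3 at 2.05 and MAFF at 1.91. In KO C28 it was JUND, at 2.88, with the 5th and 95th percentiles of all genes at -2.04 and 2.41. FOS (0.17), FOSL1 (-0.85), FOSL2 (-0.71), JUNB (0.55) and BATF3 (0.63) there had gaps that over 50% of genes exceeded. FOS, FOSB, JUN, ATF3, MAFF and BATF3 lay higher in replicate 2 than in replicate 1 in all 3 lines. FOSL1, FOSL2, JUNB and JUND lay higher in some lines and lower in others. The labels name no difference between the replicates of a line.

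**Figure D4:**
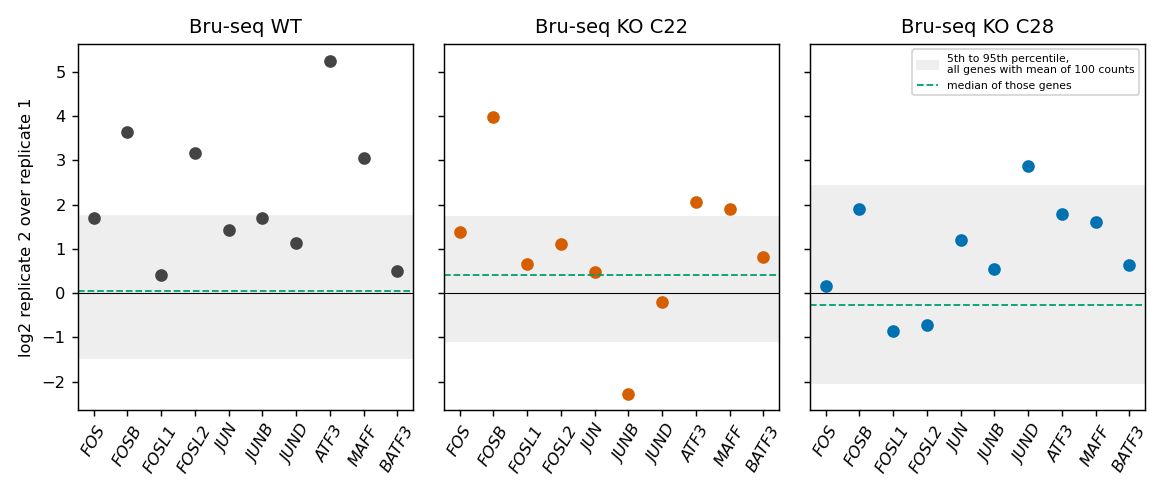
Log2 ratio of Bru-seq replicate 2 over replicate 1 for each AP-1 gene in the 3 lines, with grey bands for the 5th to 95th percentile and a dashed line for the median of 11811 genes averaging 100 counts or more. In WT the points of ATF3 (5.25), FOSB (3.63), FOSL2 (3.17) and MAFF (3.06) lie above the band.

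In BruUV-seq, with 1 library a line, the order of the lines was WT, KO C28, KO C22 for most members. These ratios have no replicate check, and their 95% exact intervals cover counting error only. The KO C22 level was 0.0977 of WT for FOSB (0.0808 to 0.117), 0.123 for FOS (0.104 to 0.144) and 0.209 for ATF3 (0.188 to 0.231). BATF3 and MAFF stood at 0.354 and 0.41, and JUND, JUNB, JUN and FOSL1 between 0.579 and 0.665. FOSL2 alone was above WT, at 1.27 (1.19 to 1.35). The KO C28 level was 0.273 of WT for FOSB (0.247 to 0.302) and 0.324 for FOS (0.296 to 0.354). BATF3, JUNB, ATF3, JUN and FOSL1 stood between 0.538 and 0.888, JUND at 1.05 (0.962 to 1.15), MAFF at 1.1 and FOSL2 at 1.53. Thus 9 members lay below WT in KO C22 and 7 in KO C28, where 54.7% and 58% of 11833 genes averaging 100 counts or more did so.

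All 10 members were higher in KO C28 than in KO C22 in BruUV-seq, where 50% of genes were. ATF3 was 3.42-fold higher, FOSB 2.8-fold, MAFF 2.67-fold and FOS 2.64-fold, and JUNB was the closest at 1.18-fold. In Bru-seq the clones did not show that order throughout: FOS and JUNB lay higher in both KO C28 libraries than in both of KO C22, FOSL2 lay lower, and the others overlapped. FOS and JUNB lay higher in KO C28 in every library of both assays, against 8.26% of genes. In the edgeR fit over both assays no member and 0% of genes passed between the clones. At an unadjusted p under 0.05, 551 genes were lower and 869 higher in KO C28, and DESeq2 called 236. FOS had a log2 fold change of 1.48 (SE 0.67, adjusted p = 0.782) and JUND of 1.40 (SE 0.65, adjusted p = 0.782) for KO C28 over KO C22. With each library left out in turn, that of FOS ran from 1.02 to 1.93 and that of JUND from 0.27 to 1.84.

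Ultraviolet light went with higher levels of most members in every line. FOS, FOSL1, JUN, JUNB, JUND and MAFF were higher in BruUV-seq than in both Bru-seq libraries of the same line in all 3 lines, 6 of 10 members against 14.4% of 23443 genes. Within WT, 6 members lay so, against 32% of genes. The count was 7 in KO C22 against 32.5%, and 10 in KO C28 against 28.9%. In the fit over all lines the 10 members had fold changes above 0 with a median of 1.94, while the median of all genes was -0.18. None passed an adjusted p of 0.05 with edgeR, where 0.00427% of genes, 1 gene, were called. At an unadjusted p under 0.05, 6 members and 10.7% of genes were higher, and 12.7% were lower.

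The largest log2 changes with the assay were those of FOS, at 3.04 (SE 0.58, adjusted p = 0.0918), and JUNB, at 2.94 (SE 0.54, adjusted p = 0.0903). JUN stood at 2.41 (SE 0.38, adjusted p = 0.0668) and FOSL1 at 1.72 (SE 0.34, adjusted p = 0.0976). FOSB and MAFF stood at 2.12 and 1.97, JUND at 1.91 and ATF3 at 1.14. FOSL2 and BATF3 stood at 0.17 and 0.19, near the other genes. These calls moved with the settings. DESeq2 called 6 members, FOS, FOSL1, JUN, JUNB, JUND and MAFF, among 4109 genes. FOS, JUN and JUNB were called with the low-count filter grouped by line (adjusted p = 0.0452, 0.0353 and 0.0452), among 93 genes. Without Bru-seq WT replicate 2 edgeR called FOS (0.036), JUN (0.036) and JUNB (0.0363) among 142 genes, and without KO C22 replicate 2 FOS (0.0367), FOSL1 (0.0444), JUN (0.0319) and JUNB (0.0291) among 494 genes. Without KO C28 replicate 2 it called 5, FOS (0.0178), FOSL1 (0.0119), JUN (0.00955), JUNB (0.0129) and JUND (0.0116), among 3305 genes. With that library and WT replicate 2 both left out it called 8, all but FOSL2 and BATF3, in a setting in which 4486 genes were called.

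Short genes stood higher in BruUV-seq than long ones, and 6 of the 10 members span less than 10 kb. The median log2 change of all genes was 0.21 below 2 kb, 0.7 from 2 to 5 kb, 0.6 from 5 to 10 kb, 0.22 from 10 to 20 kb and -0.23 from 20 to 50 kb. It was -0.56 from 50 to 100 kb and -0.98 above. JUNB and JUND span 1.82 and 1.86 kb, FOS 3.46 kb, JUN 3.54 kb, FOSB 7.18 kb and FOSL1 8.48 kb. FOS (3.04) and JUN (2.41) lay above the 95th percentile of genes from 2 to 5 kb, which was 2.38, and JUNB (2.94) lay above that of genes under 2 kb, 2.68. FOSB (2.12) lay above that of genes from 5 to 10 kb, 1.97, and FOSL1 (1.72) and JUND (1.91) lay below those of their bins. MAFF (14.6 kb, 1.97) lay above the 95th percentile of genes from 10 to 20 kb, 1.81, and BATF3 (13.6 kb, 0.19) lay near their median. ATF3 (55.4 kb) lay above the 95th percentile of its bin, 0.95. With an offset that takes out the trend with gene length, FOS stood at 2.37 (adjusted p = 0.0867), JUNB at 2.35 (0.0842) and JUN at 1.77 (0.11), with the same direction and no call.

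The assay change was also taken within each line. JUN changed by 2.39, 2.52 and 2.36 on the log2 scale in WT, KO C22 and KO C28, and JUNB by 2.73, 3.58 and 2.47. FOS changed by 1.11 in WT, 3.85 in KO C22 and 3.70 in KO C28. FOSB changed by -0.56 in WT, 2.22 in KO C22 and 3.81 in KO C28, and ATF3 by -0.67, 0.48 and 2.99. The WT values of FOSB and ATF3 rest on the high WT replicate 2: the BruUV-seq level of FOSB, 93.5 CPM, lay between the WT replicates at 20.5 and 255 CPM. Without that library the WT value was 2.17 for FOSB, 3.61 for ATF3, 2.18 for FOS and 3.25 for JUN, so the WT values depend on it. No member and no gene was called within a line by edgeR, where each line held 1 BruUV-seq library. At an unadjusted p under 0.05, 3 members were higher in WT against 0.572% of genes, 4 in KO C22 against 4.21%, and 7 in KO C28 against 2.02%. At that level 154, 1133 and 544 genes were higher and 82, 366 and 1374 were lower. With each Bru-seq library left out in turn, the FOS change ran from 3.29 to 4.81 in KO C22 and from 3.6 to 3.84 in KO C28. That of FOSB ran from 1.28 to 5.93 and from 3.04 to 5.15, and that of MAFF from 2.99 to 4.71 in KO C28. The line with a library left out then has 1 library in each assay, so calls from these fits are not listed by gene.

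The differences between lines in the assay change were tested as an interaction, with the lone BruUV-seq library taken to vary like the Bru-seq libraries. The FOS change was larger by 2.74 (SE 1.24) in KO C22 than in WT on the log2 scale, where KO C28 had 2.59 (SE 1.23), with an edgeR adjusted p = 1 in each. For KO C28 the difference was 4.36 (SE 1.77, adjusted p = 1) for FOSB and 3.66 (SE 1.70, adjusted p = 1) for ATF3. JUN had 0.13 in KO C22 (SE 1.20) and -0.03 in KO C28 (SE 1.20), with standard errors many times these values. With each Bru-seq library left out in turn, the KO C28 difference ran from 1.61 to 5.7 for FOSB. For ATF3 it ran from -0.62 to 4.87, so its sign depended on single libraries. Without Bru-seq WT replicate 2 the FOS difference was 1.67 in KO C22 and 1.51 in KO C28. None of 26922 genes was called in either interaction, and at an unadjusted p under 0.05 the change was lower than in WT for 21 genes and higher for 64 in KO C22, and lower for 146 and higher for 15 in KO C28.

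**Figure D5:**
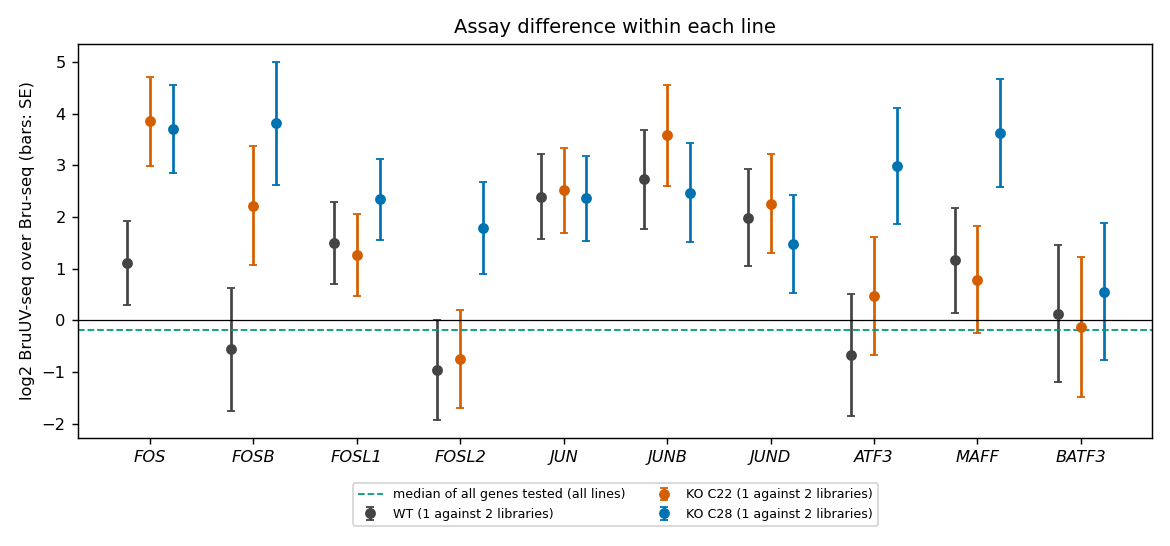
Log2 ratio of BruUV-seq over Bru-seq for each AP-1 gene within WT, KO C22 and KO C28 with standard errors (1 library against 2), and a dashed line at -0.18 for the median of all genes over all lines. JUN lies between 2.36 and 2.52 in all lines, whereas FOS lies at 1.11 in WT and at 3.70 to 3.85 in the clones; without WT replicate 2 the WT points stand at 3.25 and 2.18.

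No gene next to a member had an edgeR adjusted p under 0.05 in Bru-seq. Neighbours were the nearest tested genes that do not overlap the member, so ERCC1, which overlaps FOSB, was left out. FOSB had a Bru-seq log2 fold change of -6.11 in KO C22 and -6.50 in KO C28, while its neighbours among tested genes, CD3EAP and RTN2, had -0.29 and -0.37 in KO C22. In KO C28 these neighbours had 0.21 and -0.15. ERCC1 itself held 0.315 and 0.562 RPKM in the WT replicates of Bru-seq. It held 0.174 and 0.269 RPKM in those of KO C22, and 0.228 and 0.219 in those of KO C28. In BruUV-seq it held 0.773, 0.691 and 0.74 RPKM in WT, KO C22 and KO C28. These ERCC1 levels are given without a test. MAFF's neighbours PLA2G6 and TMEM184B had -0.43 and 0.40 in KO C22. The FOS neighbour AF111167.1, 6.91 kb away, had -4.03 with a wide error (SE 2.87) in KO C22, where KO C28 had 0.65 (SE 2.46). PRDX2, beside JUNB, had 2.93 (SE 1.21, adjusted p = 0.728) in KO C28 and was the one neighbour with an unadjusted p under 0.05.

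Other genes of the pathway lay on both sides of WT. Of 23 other AP-1 and zipper genes, 18 passed the low-count filter in Bru-seq, and 10 lay below and 8 above WT in each clone, with medians of -0.04 in KO C22 and -0.53 in KO C28. The medians of all genes were 0.07 and -0.08. None was called in any comparison by edgeR or, for the lines, by limma-voom. At an unadjusted edgeR p under 0.05 over both assays, 2 lay lower and 1 higher in each clone. Of all 23443 genes, 647 lay lower and 607 higher in KO C22, and 618 lay lower and 1900 higher in KO C28. DESeq2 called 2 lower over both assays in KO C22, DDIT3 and BACH2, and 0 in KO C28, among 347 and 685 genes in all. DDIT3, which encodes the stress factor CHOP, had the smallest p over both assays in KO C22, at -2.74 (SE 0.57, adjusted p = 0.144), and stood at -1.50 (SE 0.55, adjusted p = 0.459) in KO C28. The WT replicates of Bru-seq held 15.9 and 83.6 CPM of DDIT3, those of KO C22 5.83 and 8.77 CPM, and those of KO C28 9.99 and 17 CPM. BACH2, a repressor that pairs with small MAF proteins, stood at -2.16 (SE 0.56, adjusted p = 0.319) in KO C22. JDP2, a repressor of AP-1, stood at -1.68 (SE 0.59, adjusted p = 0.782) in KO C28 against KO C22.

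Of 26 genes that act upstream of AP-1, all were tested, and edgeR and limma-voom called none between the lines. At an unadjusted edgeR p under 0.05 over both assays, 6 lay lower and 2 higher in KO C22, and 4 lay lower and 0 higher in KO C28, where 2.76% and 2.64% of all genes lay lower. Of all 23443 genes, 607 lay higher in KO C22 and 1900 in KO C28. DESeq2 called DUSP1 and DUSP6 lower and DUSP10 higher in KO C22, and DUSP6 lower in KO C28, among 347 and 685 genes in all. In Bru-seq 11 lay below WT and 15 above in KO C22, and 20 below and 6 above in KO C28, with medians of 0.18 and -0.54. Of all genes 46.5% and 52.7% lay below WT there. DUSP6, a phosphatase that inactivates ERK and is itself made in response to ERK, came closest to the edgeR threshold over both assays. It had -3.02 (SE 0.52, adjusted p = 0.0596) in KO C22, where KO C28 had -2.81 (SE 0.52, adjusted p = 0.0936). The WT replicates of Bru-seq held 44.6 and 134 CPM of DUSP6, those of KO C22 8.69 and 11.7 CPM, and those of KO C28 10.2 and 6.28 CPM. BruUV-seq gave 90.5, 12.8 and 25.1 CPM in WT, KO C22 and KO C28. Both clones lay below WT in every library, as for FOS and FOSB, and 5.2% of 23443 genes did so. DUSP1 stood at -1.54 (SE 0.39, adjusted p = 0.284) in KO C22, and DUSP10, a phosphatase of the stress kinases, stood at 3.04 (SE 0.70, adjusted p = 0.224). SRF, which encodes serum response factor, stood at -1.58 (SE 0.63, adjusted p = 0.459) in KO C28.

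Of 28 textbook AP-1 target genes, 20 passed the filter, and edgeR and limma-voom called none between the lines. At an unadjusted edgeR p under 0.05 over both assays, 2 lay lower and 1 higher in KO C22, and 2 lay lower and 4 higher in KO C28. Of all 23443 genes, 647 lay lower and 607 higher in KO C22, and 618 lay lower and 1900 higher in KO C28. DESeq2 called AREG and EREG lower in KO C22, and TIMP1 and KRT18 higher in KO C28, among 347 and 685 genes in all. In Bru-seq 8 lay below WT and 12 above in KO C22, and 11 below and 9 above in KO C28, with medians of 0.22 and -0.35. Of all genes 46.5% and 52.7% lay below WT there. EREG and AREG, which encode ligands of the EGF receptor, stood at -2.36 (SE 0.53, adjusted p = 0.198) and -3.59 (SE 0.95, adjusted p = 0.345) in KO C22 over both assays. HBEGF, a further ligand, stood at 1.52 (SE 0.65, adjusted p = 0.875). TIMP1, a protease inhibitor, and KRT18, a keratin, stood at 2.20 (SE 0.70, adjusted p = 0.459) and 2.47 (SE 0.83, adjusted p = 0.459) in KO C28. Both were highest in KO C28 replicate 2 of Bru-seq, at 63.1 and 792 CPM, against 14.5 and 57.2 CPM in replicate 1, and the part of that library was not tested.

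Across the 9 libraries, members fell into patterns that are described here by Pearson's r of log2 CPM, with no test, since the libraries share lines, assays and depth. FOS and FOSB had r = 0.944, JUN and JUND 0.929, ATF3 and MAFF 0.913, and JUN and JUNB 0.892. FOSB and BATF3 had 0.92. FOSL2 had 0.64 with MAFF and 0.625 with ATF3, but 0.132 with FOS and -0.0127 with JUNB. Among 10478 genes averaging 100 counts or more, those most like FOS were MAP3K14-AS1 (0.977), EMG1 (0.97) and RRP12 (0.955). Those most like FOSB were NID1 (0.988), EGR1 (0.978), itself an immediate early factor, and MAP3K14-AS1 (0.957). The closest to JUN were DECR2, PPP1R15A and ZBTB48, at 0.982 to 0.983. For JUNB they were PIM3 (0.976), STK16 (0.963) and the immediate early gene IER2 (0.947). For ATF3 they were MAPKAPK3 (0.974), MCOLN3 (0.969) and the immediate early receptor gene NR4A1 (0.967).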

How the data were processed

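The 9 libraries are Bru-seq (2 per line) and BruUV-seq (1 per line) of WT, KO C22 and KO C28. Per the submitters' processing notes, CASAVA 1.8.2, Bowtie2 2.3.3, STAR 2.5.3a and bedtools 2.16.2 were used with the builds hg38 and GRCh38. The sources used here do not give the annotation release. The deposited tables hold, per gene, an expected count (estimated reads over the gene body, in part fractional) and the RPKM that the authors computed.

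Counts were rounded and tested with edgeR 4.0.16 in R 4.3.3 (filterByExpr, TMM, quasi-likelihood F test, Benjamini-Hochberg adjustment over all genes, threshold 0.05). The fits covered 6 Bru-seq libraries (22827 genes), 9 libraries with line and assay (23443 genes), and 9 libraries with 1 coefficient per line and assay (26922 genes). All 10 members passed each filter. The script was tested on simulated data. DESeq2 1.42.0 and limma-voom (limma 3.58.1) were alternatives, among other settings. CPM used TMM factors over all 9 libraries and compares libraries; RPKM compares genes. Intervals of BruUV-seq ratios are exact binomial at 95%. Reads carry no molecular identifiers, so these intervals cover counting error only.

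All members were named by the rule. From the other lists, the 3 genes with the smallest p per comparison were eligible, and for FOS, FOSB, JUN, JUNB and ATF3 the 3 genes most alike. The members and lists were chosen with earlier results of these data known.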

Additional observations from a re-analysis of the deposited data

Results flagged for a closer look

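The log2 changes of FOSL2 with the assay had opposite signs in the clones, the one in KO C22 being smaller than its standard error. In KO C22 its BruUV-seq level lay below both Bru-seq libraries (log2 change -0.74, SE 0.95), and in KO C28 it lay above both (1.79, SE 0.89). With a Bru-seq library left out, these changes ran from -1.17 to -0.11 and from 1.54 to 2.18. The difference between these changes was not tested. In WT the BruUV-seq level lay between the Bru-seq replicates.

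The clones also changed order for FOSL2 between the assays. In Bru-seq both KO C28 libraries lay below both KO C22 libraries (log2 fold change -2.41), whereas in BruUV-seq KO C28 lay above KO C22 (log2 ratio 0.27, 1 library each). This difference was not tested.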

How the results depend on the processing

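The numbers of members called depended on the tool and on the filter. Without the filter on low counts, 3 members (FOS, FOSB and ATF3) were called in each clone against WT, in Bru-seq and over both assays alike. All genes called without the filter numbered 43 in KO C22 and 190 in KO C28 of Bru-seq, and 272 and 1100 over both assays. In the same setting 7 members were called between the assays over all lines, 1 within KO C22 and 4 within KO C28. There 2326, 67 and 143 genes in all were called. DESeq2 called 2 in KO C22 and 3 in KO C28 in Bru-seq, 2 in each clone over both assays, and 6 between the assays. limma-voom called 0 in KO C22 over both assays, where edgeR called 1, and 3 between the assays, among 150 genes. Between the assays, the low-count filter grouped by line gave 3, and leaving out WT replicate 2 and KO C28 replicate 2 together gave 8; both settings were chosen after seeing the data.

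With each library left out in turn, the members called ran from 0 to 2 in KO C22 and from 0 to 3 in KO C28 of Bru-seq. They ran from 0 to 1 in KO C22 over both assays, from 0 to 5 between the assays, from 0 to 1 within KO C22 and from 0 to 3 within KO C28. They stayed at 0 for the clones against each other, for KO C28 over both assays, within WT and in both interactions. The counts above 0 for the lines in Bru-seq came without WT replicate 1, KO C22 replicate 1 or KO C22 replicate 2. FOSB then reached an adjusted p of 7.66e-05 in KO C22 and 7.47e-07 in KO C28. The number of all genes called over both assays, 37 in KO C22 and 23 in KO C28, ran from 3 to 142 and from 1 to 67 with a library left out, and stood at 347 and 685 with DESeq2 and at 272 and 1100 without the filter.

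Among 610 values of single members under the settings other than leaving out each library in turn, 17 changed sign and 51 gained a call. Each change of sign came without a call under either setting, and 1 value lost its call. Signs also moved with a library left out: FOSL2 in KO C22 of Bru-seq kept its sign in 4 of 6 such fits. The call of FOS in KO C22 over both assays was also lost without several libraries, as given above. FOS, FOSB, FOSL1 and BATF3 kept their sign against WT in both clones and both fits under every setting run. A kept sign does not speak of size, since FOSL1 stood at only -0.3 in KO C22 of Bru-seq. The number of members lower than WT in both clones in BruUV-seq was the same under 3 other scalings, and so was the number of libraries led by JUN with TMM-scaled counts per kilobase.

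The replicate numbers were not used as pairs: residuals of same-numbered libraries correlated at 0.428 between WT and KO C22, at -0.00139 between WT and KO C28, and at -0.475 between the clones. With the replicate block, 0 members were called in Bru-seq, as without it, and FOS stood at -5.67 (adjusted p = 0.649) in KO C22 and -4.08 (adjusted p = 0.821) in KO C28. Depth limits FOS and FOSB in the clones, with 3 to 83.85 reads a Bru-seq library, and 2 libraries a group limit all tests.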
